A study of Homo sapiens with 15 samples.

Results

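The CKLF and CMTM family is a set of 9 genes, CKLF and CMTM1 to CMTM8, out of 58735 genes with a value in each library. Its members were taken by name, as a set that was chosen by RNA levels already seen in these samples, namely their FPKM in the 5 groups. For that reason the values of the 9 genes are given as a description, without p-values. CKLF is chemokine-like factor, a small secreted attractant of leukocytes. The CMTM genes (CKLF-like MARVEL transmembrane domain containing) encode small proteins that span the membrane several times through the MARVEL domain, which is shared with proteins of vesicle transport and of tight junctions. CMTM6 is known as a partner of PD-L1 that keeps this immune checkpoint ligand from lysosomal degradation, with CMTM4 as a back-up, and CMTM3, CMTM7 and CMTM8 have been tied to the uptake of the EGF receptor from the cell surface.

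The study looked for genes in supporting cells that change the drug response of tumor cells grown beside them. RNA was sequenced from HEK293T, a human embryonic kidney line that carries the SV40 large T antigen, in 5 groups of 3 wells. In 4 groups C9orf89 (now CARD19), MAGI2, MLPH or RHBDD2 had been knocked out by lentiCRISPRv2, giving the groups named C9orf89-CKO, MAGI2-CKO, MLPH-CKO and, for RHBDD2, RHBDD2-CKO, and the control group, Non-target, carried the same vector with a non-targeting guide and has the genotype WT in the labels. All 5 groups, Non-target included, were cloned by limiting dilution, so a group of 3 wells was taken to stand for 1 clone and the wells measure the spread within it, whereas differences between clones that do not come from the targeted gene cannot be told apart from those that do. No drug and no tumor cells were part of these samples. The libraries held 15517856 to 19489918 fragments on genes.

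Of the targeted genes, RHBDD2 was at 33.5 ± 5.50 FPKM (fragments scaled by exon length and sequencing depth, mean ± SD, n = 3) in Non-target and 12.4 ± 1.18 in RHBDD2-CKO, a log2 fold change of -1.42 (adjusted p = 7.56e-06 by limma over all tested genes). RHBDD2 was also lower in MAGI2-CKO, at 13.8 ± 2.15 FPKM. CARD19 was at 6.56 ± 1.04 FPKM in Non-target and 4.32 ± 0.0421 in C9orf89-CKO, and at 4.79 ± 0.339 in RHBDD2-CKO. MAGI2 lay below 0.2 FPKM in every library and MLPH was listed at 0 in all 15, so their RNA could not check the labels. A CRISPR deletion need not lower the RNA of its gene.

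The wells numbered 1 stood apart. In the 10 pairs of wells of a group that held well 1, counts differed with a chi-square of 14.6 to 24.8 for each gene on average, and in the 5 pairs of wells 2 and 3 with one of 2.40 to 6.54. Each tested member is therefore also given from wells 2 and 3 alone, a setting chosen after seeing the data. Where 4 values stand together, they belong to the C9orf89, MAGI2, MLPH and RHBDD2 clone in this order. A largest rise or fall named for a list is among its genes with an adjusted p under 0.05 and a mean of at least 1 FPKM.

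The family sits at 3 places in the genome (GRCh38, GENCODE release 29). CKLF (ENSG00000217555, chromosome 16, 66552563 to 66566251), CMTM1 (ENSG00000089505, 66566393 to 66579137), CMTM2 (ENSG00000140932, 66579448 to 66588275) and CMTM3 (ENSG00000140931, 66603874 to 66613892) follow each other on the plus strand of chromosome 16, and CMTM4 (ENSG00000183723, 66614750 to 66696707) ends the row on the minus strand. CMTM8 (ENSG00000170293, 32238679 to 32370325) and CMTM7 (ENSG00000153551, 32391671 to 32483067) lie on the plus strand of chromosome 3, and CMTM6 (ENSG00000091317, 32481312 to 32503408) meets CMTM7 tail to tail from the minus strand. CMTM5 (ENSG00000166091, 23376773 to 23379772) is alone on the plus strand of chromosome 14. The members' genes crowd each other, which bears on how fragments were shared out. CKLF has 1161 merged exon bases, of which 681 are also exon of CKLF-CMTM1 (ENSG00000254788), a readthrough gene that joins CKLF and CMTM1, and 116 are exon of an antisense gene. CMTM1 shares 591 of its 1465 exon bases with the same readthrough gene. CMTM6 and CMTM7 share 324 exon bases on opposite strands. The strand setting of the count and its treatment of fragments that fall on more than 1 gene are not given in the sources used here, so CKLF, CMTM1 and the readthrough gene, and the ends of CMTM6 and CMTM7, are uncertain to that extent.

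The sequences just before 4 of the starts are shown, those of CKLF, CMTM7, CMTM8 and CMTM4. The promoters of CMTM6, CMTM1 and CMTM5 had no part outside exons, and the parts of CMTM2 and CMTM3 are not shown. The sequences of CMTM7, CMTM8 and CMTM4 come from RefSeq promoters of GRCh38.p14, cut back to what lies outside the exons of protein-coding genes. All 4 sequences read 5′ to 3′ on the gene's own strand with every CpG in capitals. The first is the whole stretch of 18 bases between the starts of TK2, on the minus strand, and CKLF, on the plus strand. The part of the CKLF promoter outside exons, 112 bases further upstream (66552313 to 66552424), is not shown.
CKLF, chr16:66552545-66552562, plus strand: gaaCGCGgCGcCGtgCGc
CMTM7, chr3:32391603-32391670, plus strand: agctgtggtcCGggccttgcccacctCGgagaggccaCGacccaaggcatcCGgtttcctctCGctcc
CMTM8, chr3:32238430-32238678, plus strand: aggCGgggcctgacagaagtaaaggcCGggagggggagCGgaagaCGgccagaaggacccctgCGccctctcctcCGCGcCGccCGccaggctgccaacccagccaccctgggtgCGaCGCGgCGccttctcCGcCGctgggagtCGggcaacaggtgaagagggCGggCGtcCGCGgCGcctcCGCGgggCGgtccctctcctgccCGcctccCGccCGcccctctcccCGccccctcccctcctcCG
CMTM4, chr16:66696744-66696993, minus strand: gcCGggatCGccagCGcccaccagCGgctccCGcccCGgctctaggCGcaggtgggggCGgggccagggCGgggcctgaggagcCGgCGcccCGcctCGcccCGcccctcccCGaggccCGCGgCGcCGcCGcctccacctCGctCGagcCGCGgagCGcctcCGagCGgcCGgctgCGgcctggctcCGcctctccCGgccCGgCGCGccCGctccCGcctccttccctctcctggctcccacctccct
Over the full 300 bases around a start (250 before and 50 after), CMTM4 had 45 CpG, CMTM2 39, CMTM8 34 and CMTM7 33, and the CKLF windows had 30 and 33, against a median of 14 over 34796 promoters. The 3 CMTM3 starts had 31, 29 and 10, CMTM1 had 22, CMTM6 15 and CMTM5 2 CpG. The GC box letters GGGCGG, searched on both strands and each holding 1 CpG of its own, occurred 6 times at CMTM8, 5 times at CMTM7 and at CMTM6, 4 times at CMTM4 and 5 times at 2 of the 3 CMTM3 starts. They occurred once at CMTM2 and at 1 of the 2 CKLF starts, and did not occur at CMTM1 or CMTM5. Of all promoters, 44.9% held this motif. The CCAAT box (CCAAT) was found at no member on either strand and at 34.6% of all promoters. Nor did any member hold the TATA box (TATAAA), an E-box (CACGTG) or the cyclic AMP element (TGACGTCA), which 11.6%, 7.20% and 1.84% of all promoters held. These matches are a description of letters in the window.

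The order of the levels was set by 5 members. Over the 15 libraries, CMTM6 held 32.3% of the summed FPKM of the family, CMTM8 22.5%, CMTM4 16.6%, CMTM3 13.9% and CMTM7 9.82%. CMTM1 held 3.13% and CKLF 1.66%. In Non-target alone the order of CMTM3 and CMTM4 turned, at 14.4% and 14.04%. CMTM2, known for its RNA in testis, and CMTM5, known from the myelin of the brain, were close to absent. CMTM2 had 19 fragments in all 15 libraries together, 0 to 5 in each, and was at 0 in 6 of them. CMTM5 had 12 fragments in all, 0 to 4 in each, and was at 0 in 9 libraries, among them all those of Non-target and RHBDD2-CKO. A count of 0 allows up to 3 fragments in a library, which is 0.134 to 0.168 FPKM for CMTM2 and 0.0528 to 0.0666 FPKM for CMTM5, for counting error only. Both stayed below the filter on low values (at least 0.5 FPKM in at least 3 libraries), and so 7 of the 9 members were among the 16175 genes tested.

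Summed over all 9 genes, the family was highest in Non-target, at 80.8 ± 0.825 FPKM (SD, n = 3), and lowest in MAGI2-CKO, at 58.6 ± 2.14. C9orf89-CKO was at 67.8 ± 3.10, MLPH-CKO at 69.6 ± 3.01 and RHBDD2-CKO at 75.2 ± 2.88. In bulk RNA, fewer cells with a transcript and less of it per cell cannot be told apart. Every sum in a clone lay below every sum in Non-target, while CKLF and CMTM1, the least abundant of the members above 0.5 FPKM, had higher means in all clones.

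A member was called where limma, fitted on log2(FPKM + 0.1) with all 15 libraries and adjusted over all tested genes, gave an adjusted p under 0.05 against Non-target. C9orf89-CKO had 3 of the 7 tested members past this threshold, 1 higher and 2 lower, where 26.0% of all tested genes passed it. MAGI2-CKO had 4, all lower (background 36.1%), MLPH-CKO had 4, 1 higher and 3 lower (background 30.1%), and RHBDD2-CKO had 4, 3 higher and 1 lower (background 34.1%). The wells of a clone did not overlap those of Non-target for 5, 4, 4 and 6 of the 7 members, where this held for 39.7%, 46.8%, 41.1% and 44.2% of all tested genes. The median log2 fold change of the 7 was -0.23, -0.45, -0.14 and -0.21, beside -0.00, -0.00, -0.01 and 0.00 for all tested genes. These comparisons share the 3 Non-target libraries and are not independent of each other. Of all genes past the threshold in RHBDD2-CKO, 51.0% were higher. With voom on fragments scaled by library totals, where input and model changed as well, 61.3% were higher. From wells 2 and 3 alone, 3, 5, 5 and 5 members passed, where 32.4%, 40.4%, 36.9% and 42.0% of all tested genes did.

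CKLF, the chemokine-like factor itself, had the widest range of log2 group means among the 7 tested members. Its wells read 0.590, 0.278 and 0.245 FPKM in Non-target. They read 0.991, 1.20 and 2.48 FPKM in C9orf89-CKO and 1.75, 1.68 and 2.49 in RHBDD2-CKO. All 6 of these wells lay above all wells of Non-target. In MAGI2-CKO the wells read 1.20, 0.933 and 0.574 FPKM, and in MLPH-CKO 0.425, 1.23 and 1.503, so that in both clones the lowest well fell within the Non-target range. CKLF rose by a log2 fold change of 2.19 ± 0.44 (SE) in RHBDD2-CKO and 1.78 ± 0.44 in C9orf89-CKO. With a pseudocount of 1 in place of 0.1, which weighs down low genes, these were 1.12 and 0.86 and still passed. The differences of 1.11 and 1.21 in MAGI2-CKO and MLPH-CKO did not pass the threshold, but passed without Non-target well 1, at 1.42 and 1.52, or without MLPH-CKO well 1, at 1.11 and 1.71, and the one in MLPH-CKO also without C9orf89-CKO well 3. From wells 2 and 3 alone all 4 clones passed, with 2.34, 1.21, 2.02 and 2.57. The order of the means was RHBDD2-CKO, C9orf89-CKO, MLPH-CKO, MAGI2-CKO and Non-target, and each overlapped its neighbour. The level stayed low everywhere, at 5 to 48 fragments in a library, and CKLF made up 0.459% of the family's sum in Non-target and 2.64% in RHBDD2-CKO.

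The readthrough gene had few fragments. CKLF had 21 fragments over the 3 Non-target wells, and 92, 61, 68 and 117 in the clones. CKLF-CMTM1 had 16 fragments in Non-target and 29, 30, 25 and 17 in the clones. RHBDD2-CKO, which had the most CKLF fragments, had almost as few readthrough fragments as Non-target, where the readthrough wells ranged from 2 to 10. This gene stayed under the filter, and neither its differences nor their gap to those of CKLF were tested.

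**Figure D1:**
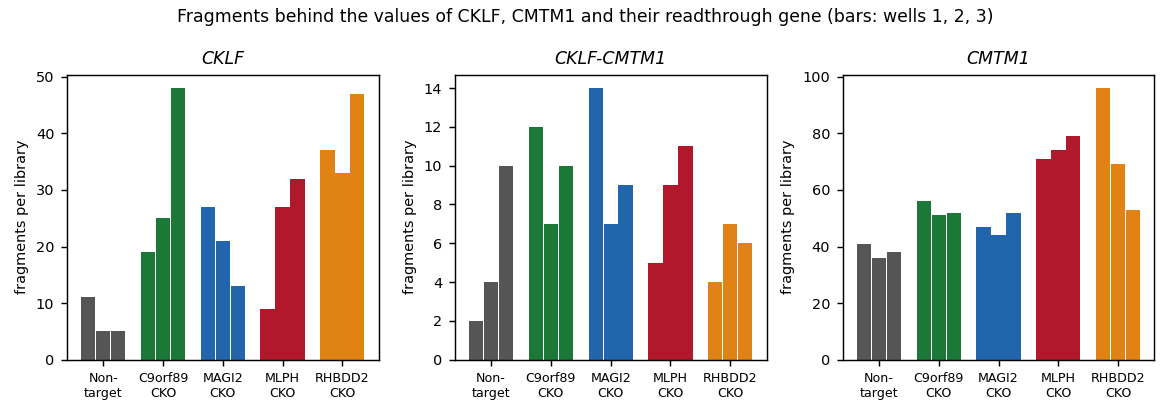
Fragments per library (vertical axes, each with its own scale) recovered for CKLF, the readthrough gene CKLF-CMTM1 and CMTM1, with a bar for each of the wells 1, 2 and 3 of a group. CKLF has 5 to 11 fragments in Non-target and 33 to 47 in RHBDD2-CKO, whereas the readthrough gene has 2 to 14 in all libraries.

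CMTM1, known for its RNA in testis, rose in MLPH-CKO and RHBDD2-CKO. The Non-target wells read 1.74, 1.59 and 1.48 FPKM, those of MLPH-CKO 2.65, 2.68 and 2.94, and those of RHBDD2-CKO 3.61, 2.78 and 2.22. Neither clone overlapped Non-target, and the log2 fold changes were 0.75 ± 0.14 in MLPH-CKO and 0.78 ± 0.14 in RHBDD2-CKO. In C9orf89-CKO the wells read 2.32, 1.93 and 2.13 FPKM, also above all Non-target wells, but the difference of 0.39 ± 0.14 did not pass. It passed with RHBDD2-CKO well 1 or 3 left out. MAGI2-CKO, at 1.65, 1.55 and 1.82 FPKM, overlapped Non-target with a difference of 0.06. From wells 2 and 3 alone the values were 0.38, 0.12, 0.83 and 0.67, and again the last 2 passed.

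CMTM6, the PD-L1 partner and the most abundant member, fell in 3 clones. Its wells read 30.0, 26.3 and 27.9 FPKM in Non-target. They read 20.5, 21.1 and 22.6 FPKM in C9orf89-CKO, 20.4, 18.1 and 17.4 in MAGI2-CKO, and MLPH-CKO wells read 23.3, 20.1 and 19.96. No well of these clones reached the lowest Non-target well. The log2 fold changes were -0.39, -0.59 and -0.41, each with a standard error of 0.09. RHBDD2-CKO, at 27.2, 23.1 and 22.7 FPKM, overlapped Non-target through its first well, and the difference of -0.21 did not pass. Without that well it was -0.29 and passed, and it also passed with the replicate number as a block in the model. From wells 2 and 3 alone all 4 clones passed, with -0.31, -0.61, -0.43 and -0.24.

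CMTM4, the closest relative of CMTM6, rose in RHBDD2-CKO. It was at 12.0, 10.6 and 11.4 FPKM in the wells of Non-target, and the wells of RHBDD2-CKO read 14.6, 13.99 and 13.8 and lay above every other library of the series. The log2 fold change there was 0.32 ± 0.06. C9orf89-CKO and MLPH-CKO were at 11.4 ± 0.140 and 11.6 ± 0.422 FPKM, MAGI2-CKO was at 10.2 ± 0.416, and none of these 3 passed the threshold. Without Non-target well 2, MAGI2-CKO passed, at -0.19. Wells 2 and 3 alone gave 0.04, -0.07, 0.10 and 0.33, and RHBDD2-CKO passed.

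CMTM7, described as a brake on EGF receptor signalling, was the member past the threshold in all 4 clones. The Non-target wells read 8.37, 9.64 and 9.01 FPKM. The wells of C9orf89-CKO read 5.25, 6.14 and 7.29, those of MAGI2-CKO 5.55, 7.44 and 6.90, those of MLPH-CKO 6.09, 7.67 and 6.15, and those of RHBDD2-CKO 5.64, 6.50 and 6.11. Every Non-target well lay above all 12 clone wells, and the clones overlapped each other. CMTM7 fell by log2 fold changes of -0.54, -0.45, -0.44 and -0.56 in that order, each with a standard error of 0.14. Of all tested genes, 3.26% passed as lower in each of the 4 clones, and 5.26% lay below Non-target without overlap in each. The call in MAGI2-CKO was lost without Non-target well 2 or 3 or MAGI2-CKO well 1, and that in MLPH-CKO without Non-target well 2 or 3 or MLPH-CKO well 1 or 3, with values of -0.44 to -0.32. All 4 passed from wells 2 and 3 alone, with -0.47, -0.38, -0.43 and -0.56.

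CMTM8, which is linked to EGF receptor uptake and lies beside CMTM7, fell in MAGI2-CKO. There the wells read 10.2, 13.7 and 13.0 FPKM, against 17.7, 20.9 and 17.7 in Non-target, with a log2 fold change of -0.61 ± 0.13. C9orf89-CKO at 14.5, 17.4 and 13.4 FPKM and RHBDD2-CKO at 15.4, 17.4 and 15.03 also stayed below the Non-target wells, but their differences of -0.32 and -0.23 did not pass. The former passed without C9orf89-CKO well 2, at -0.42, and without MAGI2-CKO well 1. Both passed with the replicate number as a block in the model. MLPH-CKO, at 17.0 ± 1.66 FPKM, overlapped Non-target. With wells 2 and 3 alone the values were -0.33, -0.52, -0.15 and -0.25, and MAGI2-CKO passed.

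CMTM3, the member of the chromosome 16 row that is also tied to EGF receptor uptake, fell in MAGI2-CKO and MLPH-CKO. The wells of Non-target read 10.6, 12.2 and 12.1 FPKM, those of MAGI2-CKO 7.31, 7.71 and 9.35 and those of MLPH-CKO 9.59, 9.97 and 8.40. Neither clone overlapped Non-target, and the log2 fold changes were -0.52 and -0.32, each with a standard error of 0.11. The call in MLPH-CKO was lost in 5 of 10 other settings and without any 1 of 5 wells (Non-target 2 or 3, MLPH-CKO 1 or 3, RHBDD2-CKO 3). C9orf89-CKO, at 9.97 ± 1.25 FPKM, overlapped Non-target and did not pass, but passed with its well 2 left out, at -0.33. All wells of RHBDD2-CKO, at 9.89 ± 0.0573 FPKM, lay below those of Non-target, but the difference of -0.23 did not pass. From wells 2 and 3 alone the values were -0.24, -0.51, -0.40 and -0.29, and MAGI2-CKO and MLPH-CKO passed.

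**Figure D2:**
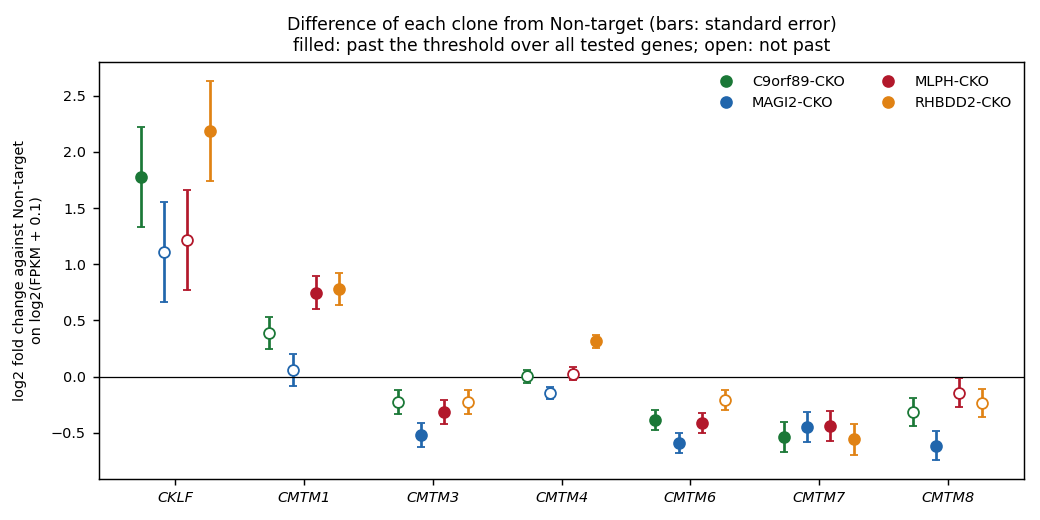
Log2 fold change of the 7 tested members in each CKO clone against Non-target (vertical axis, on log2(FPKM + 0.1)), with the standard error as bar. Filled points passed the threshold over all tested genes: CMTM7 is filled and below 0 in all 4 clones (-0.56 to -0.44), and CKLF is above 0 in all of them with filled points in C9orf89-CKO (1.78) and RHBDD2-CKO (2.19).

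The nearest tested genes on each side of the family give its surroundings. On chromosome 16, TK2, the mitochondrial thymidine kinase that starts 18 bases away from CKLF on the other strand, was at 1.20 ± 0.101 FPKM in Non-target, 1.18 ± 0.0841 in C9orf89-CKO and 1.24 ± 0.0822 in RHBDD2-CKO, the clones in which CKLF rose (adjusted p = 0.903 and 0.815, limma). TK2 was higher in MAGI2-CKO, at 1.51 ± 0.123 FPKM with a log2 fold change of 0.31 (adjusted p = 0.0434), a call lost in 14 of 25 other settings. On the other border, DYNC1LI2, a dynein light intermediate chain, was higher in C9orf89-CKO and RHBDD2-CKO by 0.32 and 0.33 (adjusted p = 0.0306 and 0.0225), calls lost in 6 and 4 of these settings. The 10 nearest tested protein-coding genes after CMTM4 lie within 0.457 Mb, but of the 10 before CKLF all except TK2 lie 7.82 to 8.42 Mb away. Among these 20 genes, 6, 5, 3 and 5 were higher and 3, 5, 4 and 1 lower, beside 26.0%, 36.1%, 30.1% and 34.1% of all tested genes past the threshold in either direction. The median log2 fold changes of these neighbours were -0.01, -0.01, -0.04 and 0.12. NDRG4, 8.04 Mb away, had the largest rise, from 1.80 ± 0.219 FPKM in Non-target to 4.45 ± 0.0979 in MLPH-CKO (adjusted p = 6.54e-06), and CIAO2B, an iron-sulfur assembly factor, the largest fall, from 73.9 ± 10.5 to 53.8 ± 1.30 FPKM in RHBDD2-CKO (adjusted p = 0.00511).

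On chromosome 3, around CMTM6, CMTM7 and CMTM8, more neighbours passed as lower than as higher in each clone. The 10 nearest tested protein-coding genes lie within 0.993 Mb after CMTM6 and within 6.45 Mb before CMTM8. Of these 20, 13, 15, 12 and 10 were lower and 1, 0, 1 and 1 higher. Their median log2 fold changes were -0.32, -0.44, -0.28 and -0.28, beside -0.54, -0.45, -0.44 and -0.56 for CMTM7, -0.39, -0.59, -0.41 and -0.21 for CMTM6, and -0.32, -0.61, -0.14 and -0.23 for CMTM8. The share of all tested genes that passed as lower was 13.1%, 19.1%, 15.5% and 16.7%. GPD1L, an enzyme of glycerol phosphate metabolism and the nearest gene before CMTM8, fell from 12.7 ± 0.267 FPKM to 9.39 ± 0.806, 9.32 ± 0.506, 7.81 ± 0.803 and 9.14 ± 0.799 (adjusted p = 8.59e-05 to 0.00328). DYNC1LI1, a dynein light intermediate chain and the nearest gene after CMTM6, was at 17.6 ± 1.13 FPKM and fell to 8.55 ± 0.158 in C9orf89-CKO and 10.8 ± 1.25 in MAGI2-CKO (adjusted p = 2.06e-05 and 0.000240), and it did not pass in the other clones.

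GPD1L, STT3B, TGFBR2, AZI2, CNOT10, GLB1, CRTAP, SUSD5 and UBP1 were lower in each of the 4 clones, as 3.26% of all tested genes were. Of these calls, CNOT10 lost that in MLPH-CKO in 3 of 25 other settings and that in RHBDD2-CKO in 1, CRTAP that in MLPH-CKO in 5, and UBP1 that in C9orf89-CKO in 6. TGFBR2, the type II receptor of TGF-beta, was at 3.69, 3.68 and 3.80 FPKM in the wells of Non-target, with 268 to 314 fragments each. In the first 3 clones it was at 1.33 ± 0.127, 0.857 ± 0.0610 and 1.42 ± 0.173 FPKM (adjusted p = 7.97e-06, 2.48e-07 and 1.09e-05). In RHBDD2-CKO its wells held 0, 2 and 1 fragments. GLB1, lysosomal beta-galactosidase, fell from 20.1 ± 1.51 FPKM to between 12.3 and 13.8 in the clones. The gene with the largest rise was TRIM71, at 2.29 ± 0.445 FPKM in Non-target and 4.27 ± 0.315 in C9orf89-CKO (adjusted p = 0.000193). The part that the wider run of lower genes has in the values of CMTM6, CMTM7 and CMTM8 was not tested.

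CMTM5 on chromosome 14, close to absent, had tested genes on both sides. Of its 20 neighbours, 1, 6, 2 and 0 were higher and 3, 1, 2 and 5 lower, beside 26.0%, 36.1%, 30.1% and 34.1% of all tested genes in either direction, and their median log2 fold changes were -0.01, 0.20, -0.01 and -0.24. SLC22A17, the nearest before it, was at 3.46 ± 0.764 FPKM in Non-target, higher in MAGI2-CKO at 6.32 ± 0.169 (adjusted p = 0.00173) and lower in RHBDD2-CKO at 1.96 ± 0.403 (adjusted p = 0.00433). NGDN, the nearest after it, passed in no clone, at 9.06 to 10.9 FPKM. HOMEZ was lower in all 4 clones, as 3.26% of all tested genes were. It fell by 0.28 to 0.41 on the log2 scale, and the call in RHBDD2-CKO was lost with only the 6 libraries contrasted. PCK2, the mitochondrial PEP carboxykinase, had the largest fall, from 20.1 ± 1.17 to 9.99 ± 0.261 FPKM in RHBDD2-CKO (adjusted p = 5.62e-06).

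Of 19 other genes of the MARVEL-domain and related tetraspan families (MAL, occludin, synaptophysin and their relatives), 14 were tested, and 5, 2, 5 and 5 were higher and 1, 4, 1 and 5 lower, beside 26.0%, 36.1%, 30.1% and 34.1% of all tested genes in either direction. Their median log2 fold changes were 0.09, -0.07, 0.00 and 0.02. MARVELD2, the tight junction protein tricellulin, was higher in all 4, as 3.39% of all tested genes were. Its wells read 0.662, 0.518 and 0.775 FPKM in Non-target and 3.96, 3.84 and 3.68 in RHBDD2-CKO, a log2 fold change of 2.40 ± 0.14 (adjusted p = 9.61e-08). The rise in MAGI2-CKO was the smallest, at 0.53 (adjusted p = 0.00954), a call lost with only the 6 libraries contrasted and with wells 2 and 3 alone. SYP, synaptophysin of synaptic vesicles, had the largest fall among those past the threshold with a mean of at least 1 FPKM. It went from 5.21 ± 0.625 to 2.52 ± 0.480 FPKM in RHBDD2-CKO (adjusted p = 0.000551, limma). MARVELD3 stayed under that mean, and all its clone wells lay below all its Non-target wells. Its wells read 0.667, 0.731 and 0.751 FPKM in Non-target and 0.0320, 0.0240 and 0.00795 in MAGI2-CKO. In the other clones they read 0.162 to 0.450 FPKM.

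The partner of CMTM6 and CMTM4 was close to absent. CD274, which encodes PD-L1, had 1, 3 and 11 fragments in the Non-target wells and 1 to 17 in the clone wells, under the filter. Of 20 genes for PD-L1 and its regulators, 13 were tested, with 1, 1, 0 and 0 higher and 3, 6, 4 and 4 lower, beside 12.9%, 17.0%, 14.5% and 17.4% of all tested genes higher and 13.1%, 19.1%, 15.5% and 16.7% lower. Their median log2 fold changes were -0.06, -0.19, -0.16 and -0.07. ZDHHC3, a palmitoyltransferase known to act on PD-L1, was lower in all 4, as 3.26% of all tested genes were. It went from 12.5 ± 0.384 FPKM to 9.64 ± 0.250, 8.22 ± 0.504, 8.72 ± 0.0882 and 9.59 ± 0.127 (adjusted p = 2.79e-06 to 0.000244, limma). ZDHHC9, of the same enzyme family, had the largest fall, from 16.6 ± 1.17 to 9.33 ± 0.485 FPKM in RHBDD2-CKO (adjusted p = 6.87e-07). SPOP, a ubiquitin ligase adaptor, had the largest rise, to 17.1 ± 0.766 FPKM in MAGI2-CKO from 13.5 ± 1.33 (adjusted p = 0.00356).

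The EGF receptor, the cargo linked to CMTM3, CMTM7 and CMTM8, had its largest fall in MAGI2-CKO. EGFR wells read 1.72, 1.44 and 1.71 FPKM in Non-target and 0.560, 0.721 and 0.626 in MAGI2-CKO, a log2 fold change of -1.23 ± 0.12 (adjusted p = 5.97e-06). In MLPH-CKO it was lower by 0.41 (adjusted p = 0.0205, limma), a call lost in 6 of 25 other settings. In C9orf89-CKO the EGFR wells read 1.84, 1.77 and 1.84 FPKM, above all Non-target wells, but the difference did not pass. RHBDD2-CKO, at 1.36, 1.47 and 1.22 FPKM, overlapped Non-target and did not pass. Of 24 genes for EGFR and its uptake, 21 were tested, with 5, 2, 7 and 6 higher and 1, 5, 4 and 4 lower, beside 26.0%, 36.1%, 30.1% and 34.1% of all tested genes in either direction. The median log2 fold changes of the list were 0.11, -0.02, 0.10 and 0.22. ERBB3, a receptor of the same family, was higher in all 4 clones, from 0.356 ± 0.0462 FPKM to 1.01 ± 0.199, 0.597 ± 0.0431, 1.35 ± 0.189 and 1.76 ± 0.193 (adjusted p = 1.27e-06 to 0.00806). STAM, an adaptor of endosomal sorting, was higher in all 4 by 0.23 to 0.54 on the log2 scale. LRIG1, which promotes receptor degradation, was lower in all 4 by 0.32 to 0.80 on that scale. Of all tested genes, 3.39% passed as higher in all 4 clones and 3.26% as lower. The STAM call in RHBDD2-CKO was lost in 7 of 25 other settings, and the LRIG1 calls in MLPH-CKO and RHBDD2-CKO in 3 and 6.

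CCR3 and CCR4, chemokine receptors named for CKLF, were at or near 0 at this depth. CCR3 had 0 fragments in all 15 libraries and CCR4 had 0 to 2 in each. Of 8 blood cell markers, CD68, ITGAM and PTPRC had at most 3 fragments in any library, and the sum of all 8 was 0.147 to 0.629 FPKM, with SPI1, 0 to 0.398 FPKM, as the most abundant over all libraries together, though CD14 had the higher mean in C9orf89-CKO (0.156 FPKM against 0.0777) and RHBDD2-CKO (0.121 against 0.0464). Of 8 kidney epithelium markers, CDH16, PAX8, SLC12A1 and UMOD had at most 3 fragments in any library, whereas PAX2 had 51 to 151, CDH1 96 to 251 and EPCAM 22 to 129. CDH1 was the most abundant over all libraries together, at 0.918 to 2.26 FPKM, but EPCAM had the higher mean in MLPH-CKO (2.60 FPKM against 1.82) and RHBDD2-CKO (1.15 against 1.07). The sum of these 8 was 2.80 ± 0.323 FPKM in Non-target and 4.04 ± 0.0370, 2.96 ± 0.107, 5.68 ± 0.279 and 2.93 ± 0.339 in the clones. Of the 3 tested, 1, 0, 2 and 1 were higher and 0 lower in each clone. Of all tested genes, 26.0%, 36.1%, 30.1% and 34.1% passed in either direction. EPCAM was higher in C9orf89-CKO, MLPH-CKO and RHBDD2-CKO (adjusted p = 2.91e-06 to 0.00147, limma). CDH1 lay below Non-target without overlap in RHBDD2-CKO but did not pass. Its wells there read 1.07, 0.918 and 1.23 FPKM, against 1.31, 1.47 and 1.42 in Non-target. Of 5 mesenchymal markers, COL1A2 and THY1 had at most 3 fragments in any library. VIM was the most abundant, at 45.2 ± 4.51 FPKM in Non-target and 68.8 ± 8.29, 69.2 ± 6.25, 82.2 ± 9.54 and 47.0 ± 3.91 in the clones. VIM and COL1A1 were higher in the first 3 of these clones, where 12.9%, 17.0% and 14.5% of all tested genes were. COL1A1 had its largest rise in MAGI2-CKO, from 2.43 ± 0.212 to 4.75 ± 0.732 FPKM. The summed mesenchymal markers ran from 42.4 to 93.3 FPKM over the libraries. The part of these shifts in the values of the family was not tested.

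Likeness to other genes was measured for the 3 of the 7 tested members with the widest range of group means on the log2 scale, as the root mean square difference of log2 values over the 15 libraries after each gene was centred. The genes most like CMTM1 were DST, OSTM1 and MYO6, all on chromosome 6, at 0.168 to 0.183 beside 0.360 for CMTM1 around its own mean. Those most like CMTM8 were DBNDD1, EIF4E3 and BID, at 0.120 to 0.129 beside 0.246. Those most like CKLF were AC087289.2, AC107982.3 and ANKRD61, at 0.517 to 0.542 beside 0.888, all of low level like CKLF itself. The family member most like CMTM8 was CMTM3, at 0.143 and rank 12 of all tested genes, the one most like CMTM1 was CMTM4, at 0.275 and rank 262, and the one most like CKLF was CMTM1, at 0.755 and rank 623.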

How the data were processed

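RNA was sequenced from 15 HEK293T libraries, 3 wells in each of 5 groups, which were taken from the labels. The submitters' processing notes name HISAT2 2.0.5, featureCounts 1.5.0-p3 and DESeq2, and the genome build and annotation are not given in the sources used here. The authors deposited 1 value per gene and library, and these deposited values were taken to be FPKM: multiplied by the merged exon length of GENCODE release 29 (all 58735 IDs matched), they are whole multiples of 1 step per library to within 0.01 fragment. The values with the most fragments were left out of this check. The fragments recovered in this way gave the depth. Floors (3 fragments in a library) cover counting error only. The labels call the wells of a group biological replicates and the study's methods describe wells incubated apart, so p-values measure the spread between wells of 1 clone.

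The members, lists and rules were chosen with earlier results of these data known. The 16175 genes that reached 0.5 FPKM in 3 or more libraries were fitted with limma 3.58.1 (R 4.3.3, eBayes with a trend) on log2(FPKM + 0.1), a scale that understates changes of low genes, with all 15 libraries in 1 model and Benjamini-Hochberg adjustment per clone, threshold 0.05. The script was tested on simulated data. Named were all members and the readthrough gene, CD274, EGFR and CCR4, the genes of each list or set of neighbours that passed in 1 direction in all 4 clones and the largest rise and fall past the threshold with a mean of at least 1 FPKM, the nearest tested gene on each side, and the 3 genes most like 3 members. Markers near 0 and the most abundant marker of each list were also named, after the values were seen. Alternatives were pseudocounts of 1 and 0.01, no filter, a mean of at least 1 FPKM, quantile normalization, no trend, only the 6 libraries contrasted, the replicate number as a block, each library left out and, added after seeing the data, voom on fragments and wells 2 and 3 alone. Python 3.11.15, pandas 2.3.3, numpy 2.4.6 and matplotlib 3.10.9 did the rest.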

Additional observations from a re-analysis of the deposited data

How the results depend on the processing

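Each result was recomputed under 10 other settings and 15 fits that each left out 1 library. No called value changed its direction. Of the member calls, those of CMTM7 in MAGI2-CKO and MLPH-CKO and of CMTM3 in MLPH-CKO were lost in some of these fits. All other member calls stayed past the threshold in every one, among them CKLF and CMTM7 in C9orf89-CKO and RHBDD2-CKO. Members past the threshold ranged over the left-out libraries from 3 to 5 in C9orf89-CKO (5 without C9orf89-CKO replicate 2), from 2 to 5 in MLPH-CKO (2 without Non-target replicate 2 or 3 or MLPH-CKO replicate 3), from 3 to 5 in MAGI2-CKO and from 4 to 5 in RHBDD2-CKO. In the same fits 3288 to 4365, 4750 to 5965, 3875 to 5023 and 4271 to 5640 of all tested genes passed in the C9orf89, MAGI2, MLPH and RHBDD2 clone. In the lists, the same ranges were 2 to 5 (C9orf89-CKO) and 2 to 4 (MLPH-CKO) for PD-L1 and its regulators, 3 to 7 and 6 to 11 for EGFR and its uptake, and 3 to 7 for the other MARVEL-domain genes in MLPH-CKO. For the neighbours they were 5 to 10 and 3 to 8 on chromosome 16 in C9orf89-CKO and MLPH-CKO, and 4 to 8 and 3 to 6 around CMTM5 in MAGI2-CKO and RHBDD2-CKO.

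Without the filter, the chromosome 16 neighbours past the threshold were 5 in C9orf89-CKO and 3 in MLPH-CKO, and those of CMTM5 were 3 in RHBDD2-CKO. Without the trend they were 4 on chromosome 16 in MLPH-CKO. At a mean of at least 1 FPKM, 3 other MARVEL-domain genes passed in C9orf89-CKO. With only the 6 libraries contrasted, 4 chromosome 16 neighbours passed in C9orf89-CKO, 7 genes of the EGFR list in MLPH-CKO, and 2 of the PD-L1 list and 3 neighbours of CMTM5 in RHBDD2-CKO. voom also left 2 of the PD-L1 list in RHBDD2-CKO. From replicates 2 and 3 alone, 11 of the EGFR list and 7 neighbours of CMTM5 passed in C9orf89-CKO, and 9 of the latter in RHBDD2-CKO. Where these counts differ, the cause was not tested.

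Groups shared replicate numbers. Deviations of same-numbered libraries from their group means correlated above 0 in all 30 pairs (median 0.0856, lowest 0.00103, highest 0.312). The median was -0.0887 over 60 pairs with different numbers. Since the deviations of a group add up to 0, negative values there come with the positive ones and are no separate result. Of 15 libraries, 11 were closest to their own number. Not every pair passed 0.1 and no label ties a number to a batch, so the numbers were not taken as pairs. What the numbers share, beyond these correlations, cannot be told from the labels. With the replicate block, 5718, 7169, 6292 and 7036 genes passed in the C9orf89, MAGI2, MLPH and RHBDD2 clone, against 4210, 5835, 4865 and 5511. Under the block 5, 4, 4 and 6 members passed, the added ones being CMTM1 and CMTM8 in C9orf89-CKO and CMTM6 and CMTM8 in RHBDD2-CKO, and 9 neighbours of CMTM5 in RHBDD2-CKO. Depth limited CMTM2, CMTM5, the readthrough gene and CD274, which had at most 17 fragments in a library.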
